A study of Homo sapiens with 5 samples.

Results

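The genes described here encode the eukaryotic translation initiation factors of the eIF1 to eIF5 families, with the eIF2 kinases and the eIF4E-binding proteins. They were taken by symbol from a table of ribosome-protected fragments per gene: every symbol starting with EIF and a digit from 1 to 5 was taken, except EIF1AY. This gave 54 of the 17297 genes in the table. The libraries were made from HCT116 cells, an established line from a human colorectal carcinoma. The MUT group had 3 libraries of cells with the genotype eIF6-N106S, in which CRISPR/Cas9 editing put serine in place of asparagine in both copies of eIF6, and the WT group had 2 libraries of cells labelled Wt. The labels speak of mutant clones but do not say which clone gave which library, whether libraries came from separate cultures, or that either group received any agent. All p-values rest on library-to-library spread alone, possibly technical, and clone and mutation cannot be told apart.

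Ribosome profiling sequences the mRNA stretches that ribosomes shield from nuclease, here MNase, so the count of a gene reflects how many ribosomes sat on its mRNAs. Because the libraries were brought to a common scale, each change is relative to the other genes, and a change in mRNA level is not separated from one in ribosomes per mRNA. In bulk extract, fewer cells of a kind and less RNA per cell cannot be told apart.

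Initiation factors bring the initiator tRNA, the mRNA and the ribosomal subunits together at a start codon. eIF2 carries the tRNA with GTP, eIF2B recharges it with GTP, and stress-activated kinases block that step by phosphorylating eIF2. eIF4F binds the mRNA's cap and unwinds its leader, eIF3 links mRNA and small subunit, eIF1 and eIF1A guard start codon choice, and eIF5 and eIF5B complete subunit joining. eIF6, the factor changed in MUT cells, binds the large subunit and keeps it from joining the small one.

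Library totals ran from 2095217 to 3821176 counts. The epithelial markers KRT8, KRT18, KRT19, EPCAM and CDH1 had footprints in all 5 libraries, while VIL1 and CDX1 had at most 2 counts in any library. Among them EPCAM and CDH1 were lower in MUT (adjusted p 0.0087 and 0.00741, edgeR) and KRT8 and KRT19 higher (0.0199 and 0.0463). The part of this shift in the results below was not tested. Of 11 markers of leukocytes, stromal and endothelial cells, hepatocytes, melanocytes and neuroendocrine cells, 8 had a row, and 2 of these, CD68 and COL1A1, had enough counts to be tested, neither called.

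Of the 54 genes, 52 had enough counts to be tested and 2 did not. The 2 were the germline cap-binding protein EIF4E1B, with 1, 1 and 4 counts in MUT and 1 and 0 in WT, and the eIF4E-binding protein EIF4EBP3, with 8, 9 and 5 counts in MUT and 0 and 5 in WT. In the fit over all genes with edgeR's quasi-likelihood test, 5 of the 52 were higher in MUT and 14 lower (adjusted p below the threshold of 0.05), while 33 did not pass. Over all 11991 genes tested, 22.9% were called, 10% higher and 12.9% lower. The share of initiation factors called higher, 9.62%, was near that background, and the share called lower was 26.9%. Initiation factors were estimated more tightly than the background, with a median SE of 0.101 against 0.145 over all tested genes. Their median absolute log2 fold change was 0.24, against 0.25. How far this precision raised the shares called was not tested. All MUT libraries lay above both WT libraries for 12 of the 52 and below for 18, or 57.7% together, against 50.7% of all tested genes. The 52 genes had a median log2 fold change of -0.09, against 0.00 over all tested genes, and a range of -0.62 (EIF4A2) to 0.74 (EIF2B4).

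The number lower depended on single libraries and on the scaling. Without MUT replicate 1 there were 5 higher and 4 lower, and the share lower was 7.69%, against 7.6% of all genes tested in that fit. Without WT replicate 1 there were 4 higher and 6 lower, a share lower of 11.5% against 8.43% of all genes. Without WT replicate 2 there were 5 higher and 8 lower, a share lower of 15.4% against 5.93%. With upper-quartile scaling 7 were higher (13.5%, against 13% of all genes) and 9 lower (17.3%, against 10.1%). Scaled by library size alone, 9 were higher (17.3%, against 14.6%) and 9 lower (17.3%, against 8.67%). Calls on 5 genes held in all 14 alternative fits: EIF4G1, EIF3C and EIF3CL were higher, and EIF4A2 and EIF3E lower. Of the 33 genes that did not pass, 11 were called in at least 1 alternative: EIF1AD in 5, EIF2AK2, EIF2B2, EIF2B3, EIF3H, EIF4A1 and EIF5B in 2 each, and EIF1, EIF2S3B, EIF3J and EIF4E in 1 each.

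**Figure D1:**
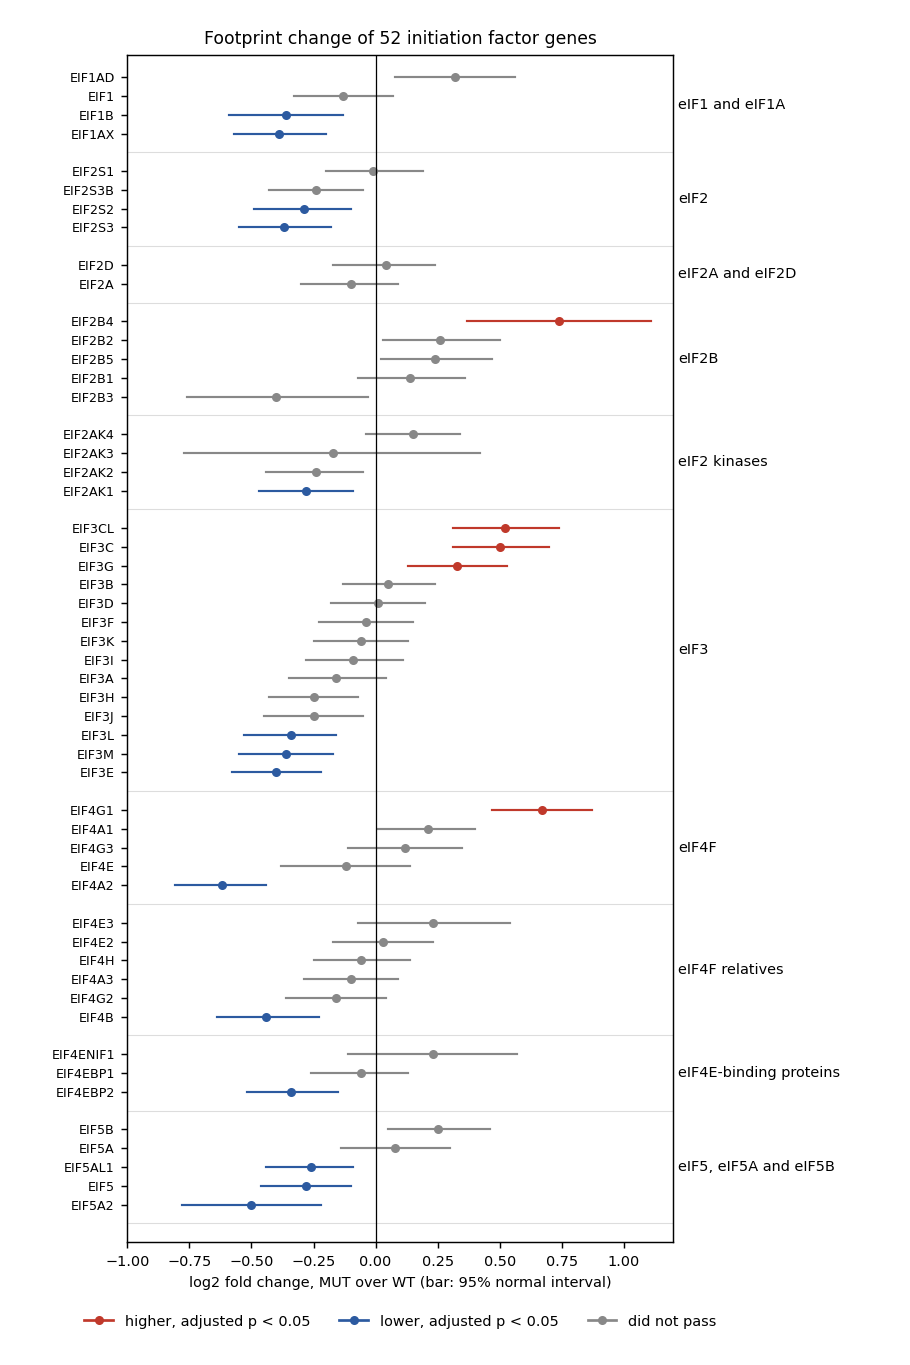
Log2 fold change of footprints, MUT over WT, for the 52 tested initiation factor genes by complex, with bars of the estimate ± 1.96 SE (3 MUT and 2 WT libraries). Red genes were higher, blue genes lower and grey genes did not pass an adjusted p of 0.05; EIF2B4 at 0.74 and EIF4A2 at -0.62 are the ends of the range.

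Ribosomal protein genes, which the same extract carries, had 0 higher and 44 lower of 83 tested, with a median of -0.33. Genes whose symbol starts with EEF1 or EEF2, a rule not limited to elongation factors themselves, had 1 higher and 2 lower of 13, with a median of -0.14. The shares lower were 53% and 15.4%, against 12.9% of all tested genes. The EEF share higher was 7.69%, against 10%. These are given for scale, and no difference between the families was tested.

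A feature of some initiation factor genes that the choice of members did not use is a pyrimidine run at the start of the mRNA. The 5′ terminal oligopyrimidine (TOP) motif, a C as first base followed by a run of C or T, is known to place an mRNA's translation under the control of mTOR and LARP1. The motif searched here was a C at the first transcribed base followed by at least 4 bases that are each C or T, on the gene's own strand, at any start that RefSeq lists (GRCh38.p14). Start windows were at hand for 45 of the 54 genes. The 9 without one were EIF2AK1, EIF2S2, EIF3E and EIF3L, called lower, EIF3CL and EIF3G, called higher, and EIF3A, EIF3H and EIF4EBP1, which did not pass. These are missing from the comparison by run below. Starts were not measured in these cells, so a run is a match of letters in the reference and not a mapped start.

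The windows of 30 bases below run 5′ to 3′ from 10 bases before the listed start, with the pyrimidine run in capitals. The first 4 belong to genes that were lower in MUT, and EIF3F, EIF3K, EIF3D and EIF2A had a run and did not pass, like EIF2D and EIF2S3B, which are not shown.
EIF4A2, chr3:186783567-186783596, plus strand: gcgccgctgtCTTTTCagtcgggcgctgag
EIF4B, chr12:53006446-53006475, plus strand: tcatccgggtCTTTTgcgttctctttccct
EIF2S3, chrX:24054946-24054975, plus strand: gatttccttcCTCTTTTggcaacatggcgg
EIF3M, chr11:32583821-32583850, plus strand: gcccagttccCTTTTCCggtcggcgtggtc
EIF3F, chr11:7987327-7987356, plus strand: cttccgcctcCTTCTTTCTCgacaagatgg
EIF3K, chr19:38619178-38619207, plus strand: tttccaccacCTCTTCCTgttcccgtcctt
EIF3D, chr22:36529147-36529176, minus strand: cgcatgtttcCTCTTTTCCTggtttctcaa
EIF2A, chr3:150546777-150546806, plus strand: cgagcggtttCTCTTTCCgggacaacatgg

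For contrast, these are the outermost listed starts of the genes with a window that were higher in MUT, none with a run.
EIF4G1, chr3:184314596-184314625, plus strand: gcggggagccggaaatggttgtggactacg
EIF3C, chr16:28688548-28688577, plus strand: tcccacccccgtggcaggcagccctgcacc
EIF2B4, chr2:27370319-27370348, minus strand: tgaccacggcgggcggagcctaggactgag

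Of the 43 tested initiation factors with a window, 10 had a run (23.3%), against 7.44% of the 9764 tested genes with one and 4.07% of all 35116 listed starts. The 10 include both EIF2S3 and its near-identical copy EIF2S3B, which hold the same 7-base run and are not independent of each other. Of these 10, 4 were lower and 0 higher, with a median of -0.17, and of the 33 without a run, 6 were lower and 3 higher, with a median of -0.01. Over all tested genes, 21.3% of those with a run were lower and 7.44% higher (median -0.07), and 12.1% of those without were lower and 10.3% higher (median 0.01). Longer runs did not go with lower values among these members, and the shorter runs tended to. The longest runs, of 10 bases, belonged to EIF3F and EIF3D with log2 fold changes of -0.04 and 0.01. EIF2A and EIF3K with 8 bases had -0.10 and -0.06, and those with 7 ran from -0.37 (EIF2S3) to 0.04 (EIF2D). EIF4A2 with 6 and EIF4B with 5 had the lowest values, -0.62 and -0.44. This order was not tested. Taking only the outermost listed start of each gene gave the same counts for the members, a choice made after seeing the data.

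**Figure D2:**
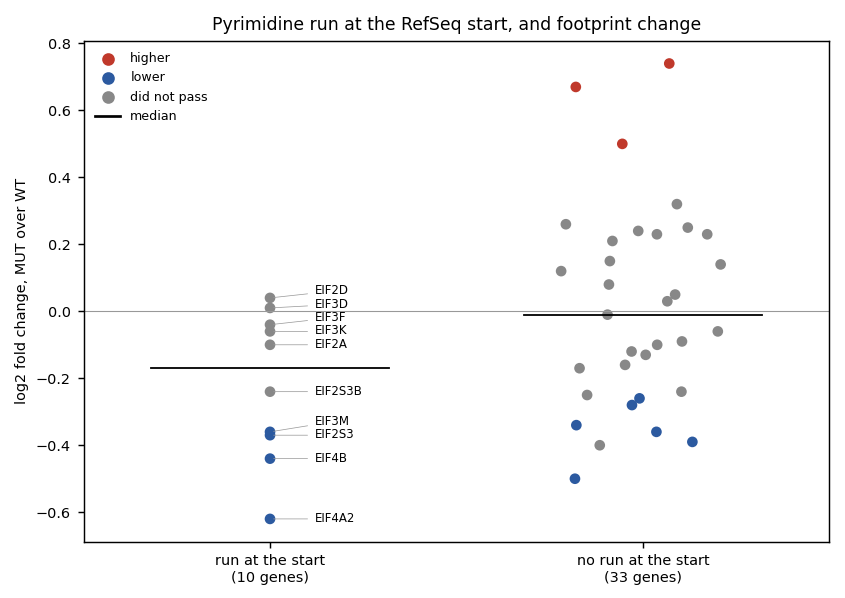
Log2 fold change, MUT over WT, of the 43 tested initiation factors with a RefSeq start window, split by a pyrimidine run at the start (left, 10 genes, named) or none (right, 33 genes), with the median as a line. The genes with a run reach from -0.62 (EIF4A2) to 0.04 (EIF2D), and the 3 genes called higher all sit on the right.

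The counts by complex that follow stand beside 10% higher and 12.9% lower among all tested genes. Groups that lie apart stand beside 25.4% of all tested genes with every MUT library above both WT libraries, and 25.3% with every MUT library below. The scanning factors eIF1 and eIF1A had 2 of 4 genes lower in MUT and 0 higher. EIF1AX encodes eIF1A, which binds the decoding site while the small subunit scans. It had 145, 144 and 153 CPM (the count relative to the scaled size of its library) in MUT, against 191 and 194 CPM in WT. The groups lay apart, and the fall was 1.31-fold (log2 -0.39, SE 0.093, adjusted p 0.00431). EIF1AX has a near-identical copy on the Y chromosome, and no source used here says how reads that map to both were counted. EIF1B, a close paralogue of eIF1, had 65.8, 72.2 and 61.3 CPM in MUT and 81.9 and 88 in WT, 1.28-fold lower (adjusted p 0.0304). EIF1 itself, the gatekeeper against wrong start codons, had 905, 817 and 848 CPM in MUT and 1018 and 859 in WT, and these ranges overlapped (log2 -0.13, adjusted p 0.374). EIF1AD, named for an eIF1A-like domain, had 86.2 to 102 CPM in MUT and 67.4 and 82.1 in WT and missed the threshold (log2 0.32, adjusted p 0.0575). It was called higher in 5 of 14 alternatives, among them without MUT replicate 3 (adjusted p 0.0334, range 0.00344 to 0.63). The EIF1AX call ended without WT replicate 2 (adjusted p 0.0519, range over its alternatives 9.24e-05 to 0.0519). The EIF1B call ended in 8 of 14 alternatives, among them without WT replicate 1, WT replicate 2, MUT replicate 1 or MUT replicate 3 (0.0623, 0.247, 0.0908 and 0.088, range 0.0214 to 0.247).

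eIF2 carries the initiator tRNA to the small subunit as a trimer of alpha, beta and gamma subunits. Footprints of the gamma and beta subunits fell in MUT, and alpha did not pass. The gamma subunit EIF2S3, which binds GTP and the tRNA, had 424, 451 and 475 CPM in MUT, against 598 and 565 CPM in WT. All MUT values lay below both WT values, 1.29-fold lower (log2 -0.37, SE 0.0946, adjusted p 0.00688), and the gene's listed start holds the 7-base run shown above. The beta subunit EIF2S2, the docking site of eIF5 and eIF2B, had 122, 139.6 and 124 CPM in MUT and 150.3 and 164 in WT, 1.22-fold lower (adjusted p 0.0352). The alpha subunit EIF2S1, the target of the kinases, averaged 295 ± 28.9 CPM in MUT (SD, n = 3) and 295 ± 29.3 CPM in WT (SD, n = 2). Its log2 fold change was -0.01, with an interval (estimate ± 1.96 SE) from -0.20 to 0.19. EIF2S3B is a near-identical copy of EIF2S3, and its counts stood at 33.6%, 35.6% and 29.9% of those of EIF2S3 in MUT and 29.1% and 31.1% in WT. It had 143, 161 and 142 CPM in MUT and 174 and 176 in WT (log2 -0.24, adjusted p 0.0794), and reads of the pair cannot be told apart here. The EIF2S3 call ended without MUT replicate 1 (0.0719, range 0.000622 to 0.0719). The EIF2S2 call ended in 8 of 14 alternatives, among them without WT replicate 1, WT replicate 2, MUT replicate 1 or MUT replicate 3 (0.0509, 0.294, 0.138 and 0.084, range 0.0216 to 0.294).

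2 other proteins can deliver initiator tRNA on special mRNAs or to recycled subunits, EIF2A and EIF2D. EIF2A averaged 351 ± 15.5 CPM in MUT and 378 ± 51.2 in WT, and EIF2D 106 ± 0.955 in MUT and 104 ± 5.76 in WT (SD, n = 3 and 2). Both had a run at the start, both had overlapping groups, and their log2 fold changes were -0.10 and 0.04 (adjusted p 0.486 and 0.829).

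eIF2B, the exchange factor that returns eIF2 to its GTP form, had 1 of 5 subunit genes higher in MUT and 0 lower. EIF2B4, the delta subunit of its regulatory core, had 33.7, 50.6 and 39.3 CPM in MUT, against 21.5 and 27.1 CPM in WT. The groups lay apart but MUT replicate 2 was well above the other MUT libraries. The rise was 1.67-fold (log2 0.74, SE 0.188, adjusted p 0.0061), the largest among the initiation factors in this fit, on 43 and 83 counts in WT. For the other subunits, the regulatory EIF2B1 and EIF2B2 and the catalytic subunit EIF2B5 had every MUT library above both WT libraries and did not pass. That order held for 25.4% of all tested genes. EIF2B1 had 93.2 to 97.3 CPM in MUT and 82.9 and 89.3 in WT (log2 0.14, adjusted p 0.356). EIF2B2 had 80.3 to 93.5 CPM in MUT and 70.9 and 70.6 in WT (log2 0.26, adjusted p 0.109), and EIF2B5 87.2 to 89.1 CPM in MUT and 68.9 and 78.8 in WT (log2 0.24, adjusted p 0.128). EIF2B3, the gamma subunit that pairs with the catalytic one, had 26.4, 34.5 and 22.1 CPM in MUT and 32 and 39.9 in WT, with overlap (log2 -0.40, adjusted p 0.128). The EIF2B4 call ended without WT replicate 1 (adjusted p 0.092, range 0.000115 to 0.092).

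The 4 eIF2 kinases sense different stresses and phosphorylate the alpha subunit. The heme-regulated kinase EIF2AK1 (HRI) was the 1 called gene, with 336, 317 and 366 CPM in MUT and 435 and 391 in WT. It was 1.21-fold lower (log2 -0.28, SE 0.0964, adjusted p 0.0379). EIF2AK2 (PKR), activated by double-stranded RNA, had 159, 162 and 164 CPM in MUT and 211 and 175 in WT, apart but not called (log2 -0.24, adjusted p 0.0744). EIF2AK4 (GCN2), which senses uncharged tRNA and stalled ribosomes, had 216, 199 and 194 CPM in MUT and 182 and 184 in WT, also apart and not called (log2 0.15, adjusted p 0.265). EIF2AK3 (PERK), the kinase of the endoplasmic reticulum, had few counts, 28, 30 and 40 in MUT and 18 and 34 in WT. Its interval from -0.77 to 0.42 on the log2 scale does not exclude a change of the size seen in the other kinases. The EIF2AK1 call ended in 6 of 14 alternatives, among them without WT replicate 1, MUT replicate 1 or MUT replicate 2 (0.194, 0.138 and 0.151, range 0.0031 to 0.194).

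eIF3 is the largest initiation factor, a scaffold of subunits a to m around an octamer of PCI and MPN domain proteins (a, c, e, f, h, k, l and m). Its 14 genes included 3 higher and 3 lower in MUT, with a median of -0.07, so called changes within the complex ran in both directions. EIF3C, a core subunit that binds eIF1 and eIF5, had 216, 253 and 233 CPM in MUT, against 162 and 168 CPM in WT. Every MUT library lay above both WT libraries, 1.42-fold higher (log2 0.50, SE 0.0989, adjusted p 0.000841). EIF3CL is a near-identical copy some distance away on chromosome 16 (EIF3C at 28688558 to 28735730, EIF3CL at 28379581 to 28426418). It had 122, 124 and 119 CPM in MUT and 75.9 and 91.9 in WT, 1.44-fold higher (adjusted p 0.00146), and its counts were 46.8% to 56.6% of those of EIF3C in the 5 libraries. Counts of the pair cannot be told apart here, so the 2 rises are not independent of each other, and their sum was 338, 377 and 352 CPM in MUT and 238 and 259.6 in WT. EIF3G, an RNA-binding subunit at the mRNA entry side, had 137, 152 and 142 CPM in MUT and 107 and 121 in WT, 1.26-fold higher (adjusted p 0.0215).

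The falls in eIF3 were on core octamer subunits. EIF3E, to which the cap-binding subunit d is attached, had 432, 432 and 422 CPM in MUT, against 563 and 571 CPM in WT. Replicates agreed closely in both groups, and the fall was 1.32-fold (log2 -0.40, SE 0.0916, adjusted p 0.0027). EIF3L, which pairs with subunit k, had 418, 409.7 and 415 CPM in MUT and 558 and 493 in WT, 1.27-fold lower (adjusted p 0.0108). EIF3M, whose listed start holds a 7-base run, had 266, 288 and 245 CPM in MUT and 327 and 354 in WT, 1.28-fold lower (adjusted p 0.00889). The MPN subunit EIF3H missed the threshold with all MUT libraries lower, at 480, 499 and 474 CPM in MUT and 599 and 554 in WT (log2 -0.25, adjusted p 0.0551). The loosely bound EIF3J was alike, with 101 to 113 CPM in MUT and 124 and 134 in WT (log2 -0.25, adjusted p 0.0747).

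The remaining 6 subunit genes, EIF3A, EIF3B, EIF3D, EIF3F, EIF3I and EIF3K, had overlapping groups and log2 fold changes from -0.16 to 0.05. For EIF3D, the subunit that itself can bind caps, the interval was -0.18 to 0.20, and for EIF3F, an MPN subunit, -0.23 to 0.15. EIF3A, the largest scaffold, had 447, 507 and 468 CPM in MUT and 494 and 560.4 in WT (log2 -0.16, adjusted p 0.261). The calls on EIF3C, EIF3CL and EIF3E held in all 14 alternatives (highest adjusted p 0.0146, 0.0407 and 0.0325). EIF3G lost its call in 4, among them without WT replicate 1 or MUT replicate 2 (0.173 and 0.0749, range 0.00233 to 0.285), EIF3L without WT replicate 1 or MUT replicate 1 (0.0758 and 0.0583, range 0.000456 to 0.0758), and EIF3M without WT replicate 2 or MUT replicate 1 (0.117 and 0.0539, range 0.00469 to 0.117).

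**Figure D3:**
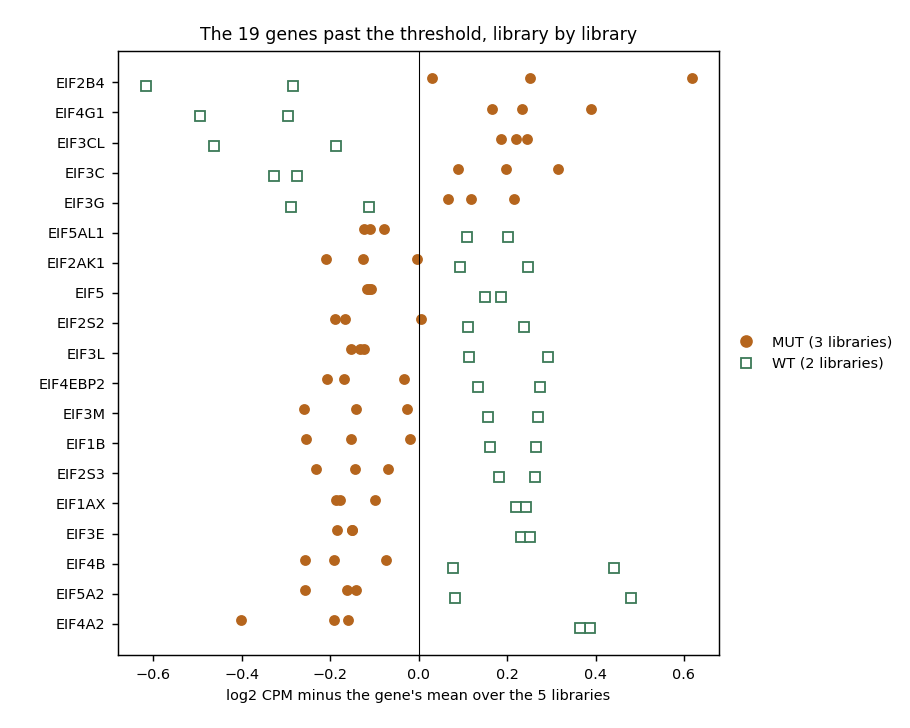
Log2 CPM of each library minus the gene's mean over the 5 libraries, for the 19 initiation factor genes past an adjusted p of 0.05 (filled circles MUT, open squares WT). MUT lies above WT for the upper 5 genes and below for the other 14, and the 2 WT libraries are far apart for EIF4B (583 and 453 CPM) and EIF5A2 (49.9 and 65.7 CPM).

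eIF4F joins the cap-binding protein eIF4E, the scaffold eIF4G and the helicase eIF4A. Its scaffold EIF4G1 rose and its helicase paralogue EIF4A2 fell in MUT, and these calls had the lowest adjusted p of all initiation factors. EIF4G1 (chromosome 3, 184314606 to 184335358, GRCh38.p14) had 234, 273 and 245 CPM in MUT, against 169.8 and 148 CPM in WT. The lowest MUT library was above the highest WT library by a wide gap, and the rise was 1.59-fold (log2 0.67, SE 0.102, adjusted p 6.58e-05). Its paralogue EIF4G3 had 73.5, 80.3 and 80.1 CPM in MUT and 75.4 and 68.7 in WT, with overlap (log2 0.12, adjusted p 0.479). EIF4G2 (DAP5), a relative that lacks the eIF4E-binding site and serves cap-independent initiation, had 1460.4, 1416 and 1533 CPM in MUT and 1759.9 and 1520 in WT, also with overlap (log2 -0.16, adjusted p 0.28).

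EIF4A2 (chromosome 3, 186783577 to 186789897) had 220.4, 225 and 190.4 CPM in MUT, against 329 and 324 CPM in WT. The groups lay far apart, 1.54-fold lower (log2 -0.62, SE 0.0953, adjusted p 6.27e-05), and its listed start holds the 6-base run shown above. Its paralogue EIF4A1, the main helicase in most dividing cells, had 555, 511 and 522 CPM in MUT and 503 and 417 in WT. These ranges did not overlap, and the gene did not pass (log2 0.21, adjusted p 0.143). EIF4A3, the paralogue that marks exon junctions, had 275, 271 and 232 CPM in MUT and 272 and 283 in WT (log2 -0.10, adjusted p 0.479). Calls on EIF4G1 and EIF4A2 held in all 14 alternatives, with log2 fold changes of 0.53 to 0.75 and -0.67 to -0.55. EIF4A1 was called higher when scaled by library size alone (adjusted p 0.0348) or without WT replicate 1 (0.0354), and its log2 fold change was -0.04 after adjustment for gene density and span (range of adjusted p 0.0348 to 0.806).

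The helicase cofactor EIF4B, which boosts eIF4A, fell, and the related cofactor EIF4H did not pass. EIF4B had 376, 359 and 408 CPM in MUT, against 583 and 453 CPM in WT. WT replicate 1 stood well above WT replicate 2, and all MUT libraries were lower than both (1.35-fold lower, log2 -0.44, SE 0.105, adjusted p 0.00408). Its listed start holds a 5-base run. EIF4H averaged 241 ± 14.8 CPM in MUT and 251 ± 25 in WT (SD, n = 3 and 2, log2 -0.06, adjusted p 0.723). The EIF4B call ended without WT replicate 1 (adjusted p 0.101, log2 -0.26, range 2.13e-05 to 0.101).

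The cap-binding proteins EIF4E, EIF4E2 and EIF4E3 did not pass. EIF4E, the cap-binding subunit, had 72.5, 81.6 and 105 CPM in MUT and 95.9 and 93.5 in WT, so MUT replicate 3 was above both WT libraries and the other MUT libraries below (log2 -0.12, interval -0.38 to 0.14, adjusted p 0.537). EIF4E2, which represses cap-dependent initiation on some mRNAs, averaged 124 ± 7.73 CPM in MUT and 122 ± 6.47 in WT, and EIF4E3 47.5 ± 6.91 in MUT and 39.7 ± 5.32 in WT (SD, n = 3 and 2). Their adjusted p values were 0.857 and 0.295.

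The eIF4E-binding proteins, taken here as EIF4EBP1 to EIF4EBP3 and EIF4ENIF1, had 1 of 3 tested genes lower. The EIF4EBP proteins hold eIF4E away from eIF4G until mTOR phosphorylates them. EIF4EBP2 had 310.5, 302 and 341 CPM in MUT and 422 and 383 in WT, with the groups apart (1.26-fold lower, log2 -0.34, SE 0.0948, adjusted p 0.0126). EIF4EBP1 had 114, 108 and 118 CPM in MUT and 123 and 114 in WT (log2 -0.06, adjusted p 0.687). EIF4ENIF1, which carries eIF4E into the nucleus and to processing bodies, had 40.4, 56.4 and 36.9 CPM in MUT and 34 and 41.2 in WT (log2 0.23, adjusted p 0.361). The EIF4EBP2 call ended without WT replicate 1, MUT replicate 1 or MUT replicate 2 (0.0851, 0.0779 and 0.0535, range 0.000457 to 0.0851).

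Of the eIF5 group, 3 of 5 genes were lower and 0 higher. EIF5, which makes eIF2 hydrolyse its GTP at the start codon, had 379, 377 and 378 CPM in MUT, against 465 and 453 CPM in WT. The libraries of each group were close together, and the fall was 1.21-fold (log2 -0.28, SE 0.0909, adjusted p 0.0281). EIF5B, the GTPase that joins the large subunit, had 127, 149 and 147 CPM in MUT and 113 and 123 in WT, with every MUT library higher, and did not pass (log2 0.25, adjusted p 0.0807). EIF5A2, the less widespread form of the elongation and termination factor eIF5A, had 39.4, 42.7 and 42.1 CPM in MUT and 49.9 and 65.7 in WT, 1.42-fold lower (adjusted p 0.0129).

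EIF5A itself had 443, 433 and 526 CPM in MUT and 501 and 387 in WT, with wide overlap (log2 0.08, adjusted p 0.641). EIF5AL1, a near-identical copy of EIF5A, was called lower at 180.4, 186 and 182 CPM in MUT and 212 and 226 in WT (adjusted p 0.0386). Its counts were 34.7% to 42.9% of those of EIF5A in MUT and 42.4% and 58.4% in WT, and the sum of both genes, 623, 619 and 709 CPM in MUT and 713 and 614 in WT, overlapped between the groups. The EIF5 call ended whichever library was left out (adjusted p 0.0595 to 0.106, range over all alternatives 0.00745 to 0.106), the EIF5AL1 call likewise (0.0501 to 0.241, range 0.0173 to 0.241), and that on EIF5A2 in 3 alternatives, among them without WT replicate 2 or MUT replicate 1 (0.382 and 0.0619, range 0.00403 to 0.382).

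Summed by complex, footprints changed by 22.1% of the WT mean in eIF2B, and by -11% to 9.52% in the other complexes. eIF2B held 0.0348%, 0.0352% and 0.0332% of all counts in MUT, against 0.0264% and 0.0299% in WT. Its difference was 0.00623 percentage points, 0.00468 with TMM-scaled library sizes and 0.00448 when WT replicate 1 was left out. eIF4F held 0.118%, 0.118% and 0.117% in MUT, against 0.112% and 0.103% in WT, a change of 9.52%. In percentage points the eIF4F difference was 0.0102, and it came to 0.00442 with TMM-scaled library sizes and to 0.00556 when WT replicate 2 was left out. eIF2 held 0.101%, 0.109% and 0.103% in MUT and 0.114% and 0.119% in WT, a change of -11%. Its difference was -0.0128 percentage points, and -0.0186 with TMM-scaled library sizes. The eIF4E-binding proteins, with EIF4ENIF1 among them, held 0.0486% ± 0.00183 in MUT (SD, n = 3) and 0.0541% ± 0.00177 in WT (SD, n = 2). In these 4 complexes the groups did not overlap. eIF3, with 3 genes called each way, held 0.416% ± 0.0127 in MUT and 0.431% ± 0.00843 in WT, with overlap, and the 8 genes of eIF5, eIF5A, eIF5B, eIF1 and eIF1A without EIF1AD held 0.232% ± 0.00702 in MUT and 0.243% ± 0.0122 in WT, also with overlap. All 54 genes held 1.34% ± 0.005 in MUT and 1.39% ± 0.0364 in WT.

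By exact permutation (two-sided, 10 possible assignments of the library labels, so that p cannot go below 0.1), eIF2B, eIF4F, eIF2, the binding proteins and the total had p = 0.1 (0.14 adjusted over 7 shares). The test gave p = 0.3 for eIF3 and p = 0.4 for the eIF5 group (exact, 0.35 and 0.4 adjusted). Counting error within a single library was not negligible beside the eIF2B difference of 0.00623 percentage points. The 95% exact binomial interval of the eIF2B share in WT replicate 1, 0.0264%, was 0.0242% to 0.0287%.

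**Figure D4:**
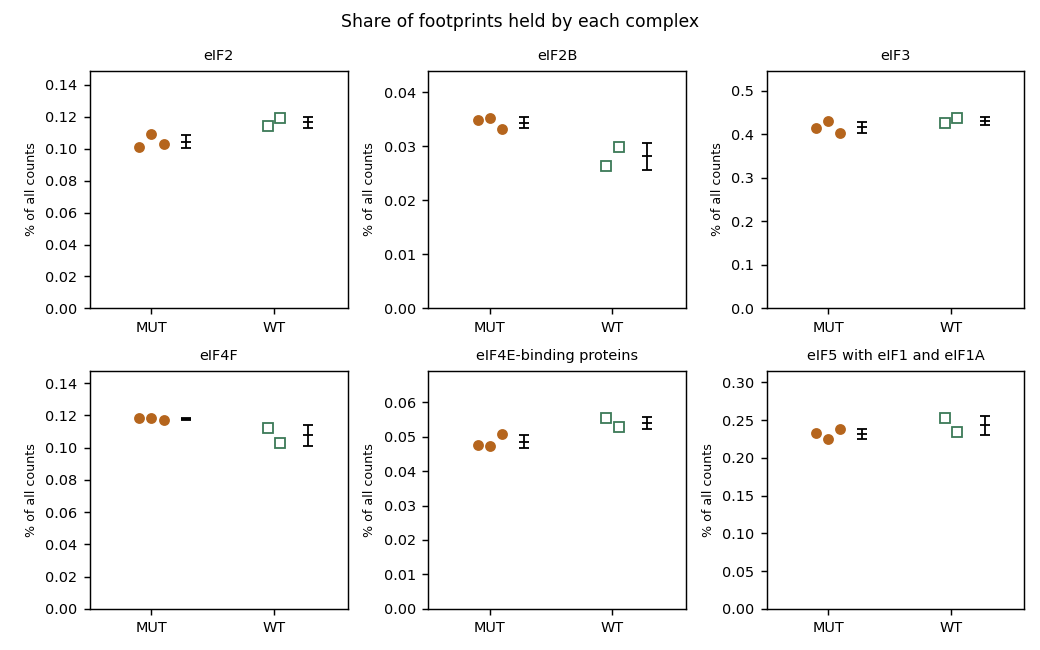
Share of all counts (%) held by the genes of 6 complexes in each library (filled circles MUT, open squares WT, bars the mean ± SD). MUT lies above WT for eIF2B and eIF4F and below for eIF2 and the eIF4E-binding proteins, while the groups overlap for eIF3 and the eIF5 group.

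Ratios between genes of 1 library do not depend on how libraries were scaled to each other. The ratio of EIF4A1 to EIF4A2 counts was 2.52, 2.27 and 2.74 in MUT, against 1.53 and 1.29 in WT, 1.78-fold higher. The ratio of EIF4G1 to EIF4G2 was 0.160, 0.193 and 0.160 in MUT, against 0.0965 and 0.0974 in WT, 1.76-fold higher, and that of EIF4G1 to EIF4G3 was 1.46-fold higher. Each of these 3 lay apart between the groups (exact two-sided permutation p = 0.1, the smallest possible, 0.233 adjusted over 7 ratios). They were chosen with results of these genes known. EIF2S1 over the mean of the 5 eIF2B genes was 4.33, 4.66 and 4.10 in MUT and 4.97 and 5.17 in WT, so the groups lay apart here too (exact p = 0.2). EIF4E over the summed EIF4EBP1 and EIF4EBP2 was 0.171, 0.199 and 0.230 in MUT and 0.176 and 0.188 in WT, so the WT values lay within the MUT range (exact p = 0.5). EIF1 over EIF5 (exact p = 0.3) and EIF3A over the mean of the other eIF3 genes (exact p = 0.9) also overlapped.

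**Figure D5:**
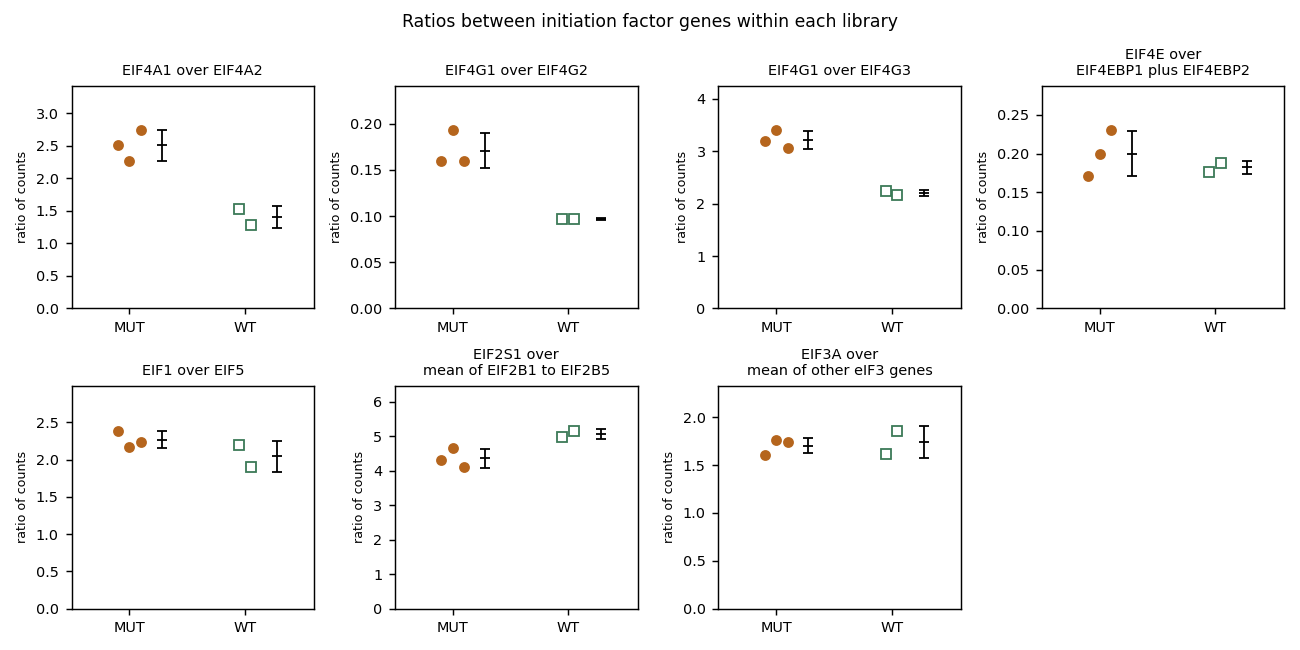
Ratio of counts between initiation factor genes within each library (filled circles MUT, open squares WT, bars the mean ± SD). EIF4A1 over EIF4A2 is 2.27 to 2.74 in MUT and 1.29 to 1.53 in WT, and the 2 EIF4G1 ratios are likewise higher in every MUT library.

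Proteins that work with these factors were taken as whole lists by role, chosen with results of these data known. Around eIF2 and the stress response, 2 of 14 genes were higher (14.3%, against 10% of all tested genes) and 4 lower (28.6%, against 12.9%). GCN1, which hands ribosome signals to the kinase GCN2, had 149, 164 and 126 CPM in MUT and 91.9 and 106 in WT, 1.46-fold higher (adjusted p 0.00149). IMPACT, an inhibitor of GCN2 that competes for GCN1, had 93.5, 100.1 and 91.3 CPM in MUT and 145 and 143 in WT, 1.51-fold lower (adjusted p 0.000172). Both calls held in all 14 alternatives. The others called were ABCF1, an eIF2 partner (1.53-fold higher, adjusted p 0.00175), the recycling factors ABCE1 and DENR (1.22-fold and 1.26-fold lower, 0.0299 and 0.0103) and the adaptor NCK1 (1.29-fold lower, 0.0245). ATF4, the transcription factor whose translation rises when eIF2 is phosphorylated, had 249, 261 and 279.9 CPM in MUT and 307 and 279 in WT, with overlap (log2 -0.15, adjusted p 0.262). The rest of the list did not pass either and went both ways. Log2 fold changes were 0.23 (PPP1R15A), 0.20 (DDIT3), 0.08 (DNAJC3), 0.03 (TRIB3), -0.02 (CDC123), -0.16 (MCTS1) and -0.22 (PPP1R15B). ABCF1 lost its call without WT replicate 2 (0.132, range 7.56e-08 to 0.132), DENR without WT replicate 1 or MUT replicate 1 (0.0691 and 0.0516, range 0.00117 to 0.0691), NCK1 in 6 alternatives and ABCE1 in 8 (up to 0.352 and 0.213).

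Among 19 partners of the cap complex and the poly(A) tail, 1 was higher (5.26%, against 10% of all tested genes) and 5 lower (26.3%, against 12.9%). PAIP2, which pulls the poly(A)-binding protein off the tail and off eIF4G, had 233, 244 and 261 CPM in MUT, against 403 and 343 CPM in WT, 1.51-fold lower (adjusted p 0.000113), and held in all 14 alternatives. Its paralogue PAIP2B was 1.59-fold lower (0.0137) and PABPC1, the poly(A)-binding protein, 1.27-fold lower (0.0254). PDCD4, an inhibitor of eIF4A whose groups overlapped, and NCBP2, of the nuclear cap-binding complex, were 1.39-fold and 1.24-fold lower (0.0426 and 0.0321). LARP1, which binds the cap of TOP mRNAs, was 1.2-fold higher (0.0448). These 5 calls each ended in 4 to 9 of the 14 alternatives, with log2 fold changes of -0.07 for PDCD4 and -0.15 for NCBP2 without WT replicate 2 and -0.16 for PABPC1 without WT replicate 1 (adjusted p up to 0.875, 0.474 and 0.263).

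Of 5 partners of eIF5 and eIF5A, BZW2, an eIF5 mimic that competes for eIF2, was 1.38-fold lower (adjusted p 0.00284, and 0.141 without WT replicate 2, range 0.000314 to 0.141). DOHH, which completes the hypusine of eIF5A, was 1.46-fold higher (0.0453, lost in 6 of 14 alternatives, up to 0.201). EIF6, the edited gene, did not pass (log2 -0.17, adjusted p 0.215), and a single amino acid change need not alter a footprint count, so it checks no label. Of these 5 genes, 20% were higher and 20% lower, against 10% and 12.9% of all tested genes. Of 10 genes that feed mTOR and the S6 kinases, 3 were higher (30%, against 10% of all tested genes) and 1 lower (10%, against 12.9%). RPTOR, the subunit that presents 4E-BPs to mTOR, had 97.7, 97.7 and 85.4 CPM in MUT and 57.4 and 65.7 in WT, 1.51-fold higher (adjusted p 0.00125), and held in all 14 alternatives. MLST8 and AKT1S1 of the same kinase complex were each 1.3-fold higher (0.0199 and 0.016), and its activator RHEB was 1.21-fold lower (0.0414). Of these 3, MLST8 and AKT1S1 each lost the call in 5 of 14 alternatives and RHEB in 9, among them whichever library was left out (0.0775 to 0.222).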

How the data were processed

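Per the labels' protocols, cell extract was digested with MNase, the 80S monosome fraction of a sucrose gradient was taken, and fragments of 25 to 35 nt were made into libraries. The deposited values are raw counts per gene, not normalized by the authors. The submitters' processing notes name STAR 2.5.2b, the build hg38, cutadapt 4.6, DESeq2 1.42.0 and FastQC 0.12.1, with no role. How reads were assigned to genes (tool, annotation, region, strand, multi-mapping) was not given in the sources used here.

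Header words were matched to the sample codes. Genes kept by edgeR's filterByExpr (minimum count 10, minimum total 15) were scaled by TMM and tested with edgeR 4.0.16 (R 4.3.3), the quasi-likelihood test over all 5 libraries (3 residual degrees of freedom), with Benjamini-Hochberg adjustment over 11991 genes and a threshold of 0.05. SEs come from the F statistic. All 54 symbols matched RefSeq's table (GRCh38.p14). The named genes are all members, the whole list around eIF2 and the stress response, and the other partners past the threshold. EIF6 and the genes of the eIF2 list that did not pass, ATF4 among them, were added after their values were seen. Members and lists were chosen with earlier results of these data known. Subunit levels per coding length were not computed, since the protein lengths they need were not at hand. Intervals of fold changes are the estimate ± 1.96 SE and hold the spread between libraries, and that of a share covers counting error only.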

Additional observations from a re-analysis of the deposited data

How the results depend on the processing

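Fold changes and counts of calls were recomputed with RLE or upper-quartile scaling, library size only, DESeq2, limma-voom 3.58.1, no count filter, a strict one (mean of at least 10 CPM, and 30 counts in 2 or more libraries), the replicate block, the trend of gene density (within 500000 bases) and span removed, and each library left out. Shares were recomputed with TMM-scaled library sizes and each library left out, ratios with each library left out, and start runs with the outermost start. A lone WT library is then assumed to vary like the MUT ones. Of the 19 calls, 5 held in all 14 alternatives. The 14 falls numbered 9 with upper-quartile scaling or library size only and 4 to 11 with a library left out. The 5 rises numbered 9 with library size only and 4 to 6 with a library left out. The members' median of -0.09 was -0.05 with upper-quartile scaling, -0.02 with library size only and -0.10 to -0.05 with a library left out. All-gene calls, 1203 higher and 1544 lower, were 609 and 948 with DESeq2, and 509 to 1089 and 732 to 1339 with a library left out. Rises made up 43.8% of these calls, against 62.8% when scaled by library size alone and 56.3% by the upper quartile. With the replicate block, 7 members rose (13.5%, against 12.8% of all genes) and 17 fell (32.7%, against 15.9%). Same-numbered libraries correlated at r = 0.0793 and 0.148 (deviations from group means, 11991 genes). The labels name no shared batch, and these libraries were not treated as pairs.

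Some log2 fold changes that had not passed changed sign, and the cause was not tested. With library size only, EIF2S1 was 0.07, EIF3F 0.04, EIF3K 0.01, EIF4EBP1 0.01 and EIF4H 0.02. With upper-quartile scaling, EIF2S1 was 0.04 and EIF3F 0.01. EIF2S1 was 0.00 without the filter, 0.01 with the strict one and 0.07 with the replicate block, under which EIF4E2 was -0.02 and EIF5A -0.01. With the density and span trend removed, EIF2D, EIF3D and EIF4A1 were -0.04, EIF4E2 -0.02, EIF4G3 -0.01 and EIF5A -0.15. With a library left out, the ranges were EIF2A -0.23 to 0.03, EIF2AK3 -0.31 to 0.01, EIF2D -0.02 to 0.08, EIF2S1 -0.11 to 0.11, EIF3D -0.04 to 0.09, EIF3F -0.08 to 0.01, EIF3K -0.17 to 0.08, EIF4E2 -0.02 to 0.07, EIF4H -0.15 to 0.04 and EIF5A -0.09 to 0.26, and that of the log2 ratio of EIF3A to other eIF3 genes -0.13 to 0.07. Shares and the other ratios kept their direction in those alternatives, but not their size. In percentage points, the difference of all members was -0.0483, -0.12 with TMM-scaled sizes and -0.0226 and -0.0741 without WT replicate 1 and 2. For eIF3 it was -0.015, -0.037 with TMM-scaled sizes, -0.0271 without EIF3C and EIF3CL, and -0.0217 to -0.00907 with a library left out. For the eIF5 group it was -0.0108, -0.0234 with TMM-scaled sizes, and -0.0194 to -0.00217 with a library left out, lowest in size without WT replicate 1. For the eIF4E-binding proteins it was -0.00543 and -0.00816 with TMM-scaled sizes. The log2 ratio of EIF4E to its binding proteins, 0.13, was 0.02 to 0.23 (0.02 without MUT replicate 3), and that of EIF1 to EIF5, 0.15, was 0.05 to 0.25 (0.05 without WT replicate 2). Levels per coding length, planned for subunits of a complex, were not run. No correction of reads shared by near-identical copies was possible, and the smallest change called was 1.2-fold.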

Other observations

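EIF4G1 and EIF4A2, the rise and the fall with the lowest adjusted p, lie on the same arm of chromosome 3, at 184314606 to 184335358 and 186783577 to 186789897 (GRCh38.p14), with EIF2B5 close to EIF4G1 at 184135358 to 184145311. EIF5A2, called lower, and EIF2A, which did not pass, lie on that arm too, at 170888418 to 170908637 and 150546787 to 150586016. Whether members gather there was not tested. Across 43 genes the GC content of the outermost RefSeq promoter and the log2 fold change had Pearson's r = 0.0584, and across 52 genes the gene span (log10) had r = -0.0334. Across all tested genes these were 0.098 (9764 genes) and -0.0448 (11855 genes). Genes are not independent replicates, and these values are descriptions.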
